A study of Mus musculus with 6 samples.

Results

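The genes described here are 10 mouse genes of agmatine, arginine and polyamine metabolism: Agmat, Arg1, Arg2, Odc1, Amd1, Srm, Sms, Sat1, Smox and Paox. They were taken as the probes whose RefSeq accession belongs to these symbols, on arrays of colonic epithelium from wild-type mice and mice lacking miR-31. Of the 10 genes, 9 had a probe, out of 23462 named genes with a probe on the array, and 8 could be tested, out of 15251. The group was selected on the difference between the genotypes on these same arrays, in which Agmat stood out, so the differences of its members between genotypes are given as a description without a test, and no call is read as support for the group.

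Polyamines are small positively charged molecules that bind nucleic acids and are needed by dividing cells, and the rapidly renewed lining of the gut is a tissue known for high polyamine demand. Arginase splits arginine into urea and ornithine, ornithine decarboxylase turns ornithine into putrescine, and spermidine and spermine are built from putrescine by adding aminopropyl groups drawn from decarboxylated S-adenosylmethionine. Agmatine is decarboxylated arginine, which gut bacteria make in quantity, and agmatinase, encoded by Agmat, splits it into urea and putrescine. Acetylation and oxidation return the larger polyamines to smaller ones.

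The series holds 6 arrays, each of 1 male mouse, 3 wild-type and 3 miR-31 knockout, with no treatment named in the labels. The tissue is labelled colonic epithelium and was sorted by flow, but its gate, the age and strain of the mice, and how miR-31 was deleted are not given in the sources used here. Mice are numbered 1 to 3 within a genotype by replicate, and the numbers are names that carry no pairing. RNA was amplified linearly, labelled with the dye Cy3 and hybridised to 1-colour Agilent arrays. Signals below are log2 intensities relative to the 75th percentile of the array, so that 0 is that percentile itself, and each difference is knockout minus wild-type.

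Probes well above background made up 66.6% to 75.6% on each array, and array signals correlated across probes at Pearson's r of 0.987 to 0.991 within genotypes and 0.983 to 0.990 between them. All 8 listed epithelial markers, Epcam, Cdh1 and Vil1 among them, were well above background on all 6 arrays. So were 7 of 10 macrophage, 6 of 6 T cell, 4 of 6 fibroblast, 5 of 6 smooth muscle, 3 of 6 endothelial, 3 of 6 neutrophil and 4 of 6 adipocyte markers, so markers of other cells were detected in this tissue as well. Among the endothelial markers Pecam1, Vwf and Cldn5 were well above background on all arrays and Cdh5, Kdr and Tek on none, and among the neutrophil markers Ly6g, Csf3r and Cxcr2 on all and S100a8 and Retnlg on none. The macrophage gene Cd163 and the fibroblast gene Pdgfra were not well above background on any array. All knockout arrays lay in 1 row of the slide and all wild-type arrays in the other, so slide row and genotype cannot be told apart. Neither Mir31 nor Mir31hg, its host transcript, was matched by a probe, and the deletion itself could not be checked.

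The microRNA absent from the knockout mice is encoded on chromosome 4, the chromosome that also carries Agmat and Srm. Its mature strands are shown because they are what the genotypes differ in by design. RefSeq places them on the minus strand of GRCm38.p6 at chr4:88910614-88910635 (5p) and chr4:88910577-88910599 (3p), and capitals mark the seed, bases 2 to 8.
mmu-miR-31-5p: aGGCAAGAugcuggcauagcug
mmu-miR-31-3p: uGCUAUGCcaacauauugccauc

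Agmat, the agmatinase gene, was the member that differed. Processed intensities of its probe were 96.4, 144.7 and 110.6 for wild-type mice 1 to 3 and 582.3, 452.6 and 616.4 in knockout mice 1 to 3. Relative to the 75th percentile these are log2 levels of -4.96, -4.42 and -4.92 against -2.60, -2.79 and -2.47. Every knockout array lay above every wild-type array, and the gap between the lowest knockout and the highest wild-type level, 1.64, exceeded the ranges within the groups, 0.54 in wild-type and 0.31 in knockout.

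The mean level of Agmat was -4.77 ± 0.30 (SD, n = 3) in wild-type and -2.62 ± 0.16 (SD, n = 3) in knockout epithelium. The difference was 2.15 ± 0.18 on the log2 scale (SE, n = 3 and 3; 95% interval 1.72 to 2.58), or 4.43-fold. The gene was measurable in both genotypes: its probe was well above background on all 6 arrays, with a level 1.48 to 2.70 log2 units above the dimmest such signal of the array in wild-type and 3.51 to 4.22 above it in knockout tissue. It was a dim probe in wild-type mice, brighter than 40.0% to 44.5% of probes, and brighter than 57.3% to 59.8% in knockout mice. Agmat is represented by a single probe with a single spot per array, so no second probe bears on the value. Among features with a gene symbol, its change ranked 37 from the top.

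In the fit across all 27916 features, 41 features, or 0.147%, were higher in the knockout at a Benjamini-Hochberg adjusted p under 0.05 (limma), and 17, or 0.0609%, were lower. Agmat was 1 of the 41 and the single member called, which is part of how the group came to be chosen. Without wild-type mouse 1 or wild-type mouse 3 the count of members called was 0, while the difference of Agmat was 2.05 and 2.07. With any of the other 4 arrays left out, the difference lay between 2.07 and 2.32. With normexp background correction it was 1.59.

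**Figure D1:**
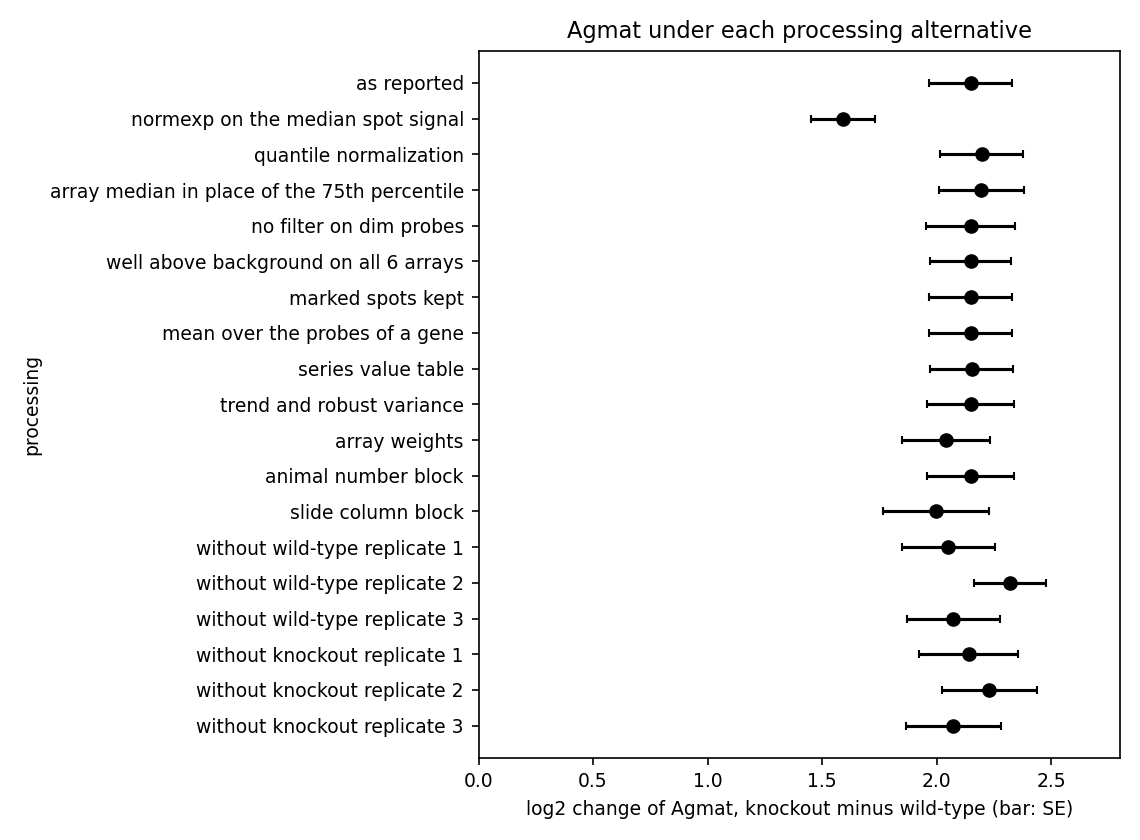
Log2 change of Agmat, knockout minus wild-type, with its SE, as reported and under each of 18 alternatives in processing. The value stayed between 1.59, with normexp background correction, and 2.32. Alternatives in the dim-probe filter, marked spots, probe rule, variance model and animal number block could not move it. The plot shows sizes and no test.

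The sequence before the start of Agmat is shown because the gene is the member that differed. RefSeq gives Agmat a pair of starts 102 bases apart, and the 250 bases before the first are at chr4:141746425-141746674 on the plus strand of GRCm38.p6. Capitals mark the only match to GGGCGG, the core of a GC box, searched on both strands.
Agmat: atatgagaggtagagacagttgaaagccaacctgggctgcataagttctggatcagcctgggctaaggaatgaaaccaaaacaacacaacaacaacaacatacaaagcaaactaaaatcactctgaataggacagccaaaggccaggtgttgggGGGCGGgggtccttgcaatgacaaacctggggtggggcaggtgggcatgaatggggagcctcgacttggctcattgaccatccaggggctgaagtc

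This window held 2 CpG dinucleotides and 51.2% G or C, and the window of the second start, which shares 148 of its bases, held 3 and 58.4%. Among the other members, windows were given for Odc1, Amd1, Sms, Sat1, Smox and Paox. Odc1 held 35 CpG dinucleotides, Smox 20, Amd1 19, Sat1 15, the windows of Paox 11 and 14, and those of Sms 7 and 32, so the Agmat windows had the fewest of the 10. In G or C content only a window of Sms, at 47.2%, was lower than the Agmat windows. The other window of Sms held 75.2%, and the other members 59.6%, in Sat1, to 80.0%, in Odc1. Over 32851 windows of all genes the medians were 6 CpG dinucleotides and 52.4% G or C, and 29.0% of windows held no more CpG dinucleotides than the first Agmat window. A match to GGGCGG was found in 9 of the 10 member windows, against 32.7% of all windows, with 1 in the Agmat window, 4 in that of Odc1 and 6 in that of Smox. TATAAA was found in 0 of the 10, against 12.4% of all windows, CACGTG in 1, upstream of Sms, against 6.02%, and CCAAT in 1, also upstream of Sms, against 33.8%. The windows of Agmat overlap each other, as do those of Paox, and these are matches of letters in a reference sequence that describe no binding.

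The arginases make the ornithine from which putrescine is formed. Arg1, the cytosolic enzyme known from liver and from some macrophages, had levels of -4.08 and -2.72 in wild-type mice 1 and 3 and -3.15 and -3.51 in knockout mice 1 and 3, while the spots of wild-type mouse 2 and knockout mouse 2 were marked as outliers and left out. Its difference was 0.07 ± 0.47 (SE, n = 2 and 2), and the 95% interval of -1.15 to 1.28 leaves room for changes of more than 2-fold either way. With the marked spots included, wild-type levels ran from -4.08 to -2.72 and knockout levels from -3.51 to -2.38, so the groups overlapped. The wild-type mice alone differed in Arg1 by more than the genotypes did.

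Arg2, the mitochondrial arginase found outside the liver, could not be tested, because its only spot was marked as non-uniform or outlying on all 6 arrays. With the marks ignored, its levels were -2.00, -1.74 and -0.68 in wild-type mice 1 to 3 and -0.93, -1.28 and -0.29 in knockout mice 1 to 3. Wild-type mouse 3 lay above knockout mice 1 and 2. The difference of 0.64 ± 0.39 (SE, n = 3 and 3) therefore came with overlapping groups and with spots that the extraction software did not accept.

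Ornithine decarboxylase, encoded by Odc1, carries out the rate-limiting step of polyamine synthesis. The tested Odc1 probe gave 1.72, 1.65 and 1.50 in wild-type mice 1 to 3 and 1.79 and 1.62 in knockout mice 2 and 3, with knockout mouse 1 left out as marked. The difference was 0.09 ± 0.15 (SE, n = 3 and 2; 95% interval -0.27 to 0.44). A second Odc1 probe was marked on 5 of 6 arrays, and with marks ignored it differed by -0.03. On the tested probe knockout mouse 2 lay above the wild-type range and knockout mouse 3 inside it, so the groups overlapped. The groups also overlapped on the second probe with marks ignored, but it had no unmarked knockout spot.

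Amd1, S-adenosylmethionine decarboxylase, which supplies the aminopropyl groups, had no probe matched to its accession. Its close relative Amd2 had 4 probes, and whether these also bind Amd1 transcripts was not tested. The tested Amd2 probe had a difference of 0.11 ± 0.16 (SE, n = 2 and 2), and the other 3 probes differed by -0.08 to 0.02 in unmarked spots.

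Srm, spermidine synthase, adds an aminopropyl group to putrescine and had 3 probes. The tested Srm probe gave 0.86, 0.89 and 1.02 in wild-type mice 1 to 3 and 1.02 and 0.65 in knockout mice 1 and 3, a difference of -0.09 ± 0.17 (SE, n = 3 and 2; 95% interval -0.49 to 0.32). The other Srm probes had no marked spot. Their levels were 0.53, 0.61 and 0.78 and 0.18, 0.29 and 0.34 in wild-type mice, and 1.08, 1.08 and 0.37 and 0.66, 0.64 and 0.04 in knockout mice. On all 3 probes knockout mouse 3 was the lowest of the 6 arrays, while knockout mice 1 and 2 were above all wild-type mice on the other 2 probes. The knockout mice therefore differed among themselves in Srm by more than the mean difference between genotypes, which was -0.09 on the tested probe, or 0.07 with its marked spot kept, and 0.21 and 0.17 on the others.

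Sms, spermine synthase, which adds the next aminopropyl group, had levels of -0.27, -0.23 and -0.55 in wild-type mice 1 to 3 and -0.51 and -0.55 in knockout mice 1 and 3. Its difference was -0.18 ± 0.16 (SE, n = 3 and 2; 95% interval -0.56 to 0.20). With marks ignored, the 3 Sms probes differed in direction, at -0.10, 0.23 and -0.33, and the groups overlapped on each.

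Sat1 encodes the acetyltransferase that marks spermidine and spermine for breakdown or export. Its levels were 2.93, 2.91 and 2.76 in wild-type mice 1 to 3 and 2.85, 3.02 and 3.02 in knockout mice 1 to 3, and the difference was 0.09 ± 0.12 (SE, n = 3 and 3; 95% interval -0.19 to 0.38). Knockout mouse 1 lay below wild-type mice 1 and 2, so the groups overlapped. A second Sat1 probe, marked on 4 of 6 arrays, differed by 0.29 with marks ignored, and its groups overlapped as well.

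Smox, spermine oxidase, which turns spermine back into spermidine, gave 0.39, 0.61 and 0.94 in wild-type mice 1 to 3 and 0.65, 0.75 and 0.81 in knockout mice 1 to 3. The knockout values fell inside the wild-type range, and the difference was 0.09 ± 0.16 (SE, n = 3 and 3; 95% interval -0.30 to 0.47). The second Smox probe gave a similar difference of 0.08.

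Paox, the peroxisomal oxidase of acetylated polyamines, gave 0.47, 0.54 and 0.36 in wild-type mice 1 to 3 and 0.52, 0.90 and 0.47 in knockout mice 1 to 3. The difference was 0.17 ± 0.15 (SE, n = 3 and 3; 95% interval -0.19 to 0.53), with knockout mouse 2 alone above the wild-type range. A second Paox probe, marked in wild-type mice 1 and 2, went the other way, at -0.26 with marks ignored. With marks ignored it was the only 1 of 16 probes other than that of Agmat whose groups did not overlap. The share over all features, 18%, was counted otherwise, with marked spots left out and 1 probe per feature. The direction for Paox therefore differed between the probes, the second of which had 1 unmarked wild-type array.

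**Figure D2:**
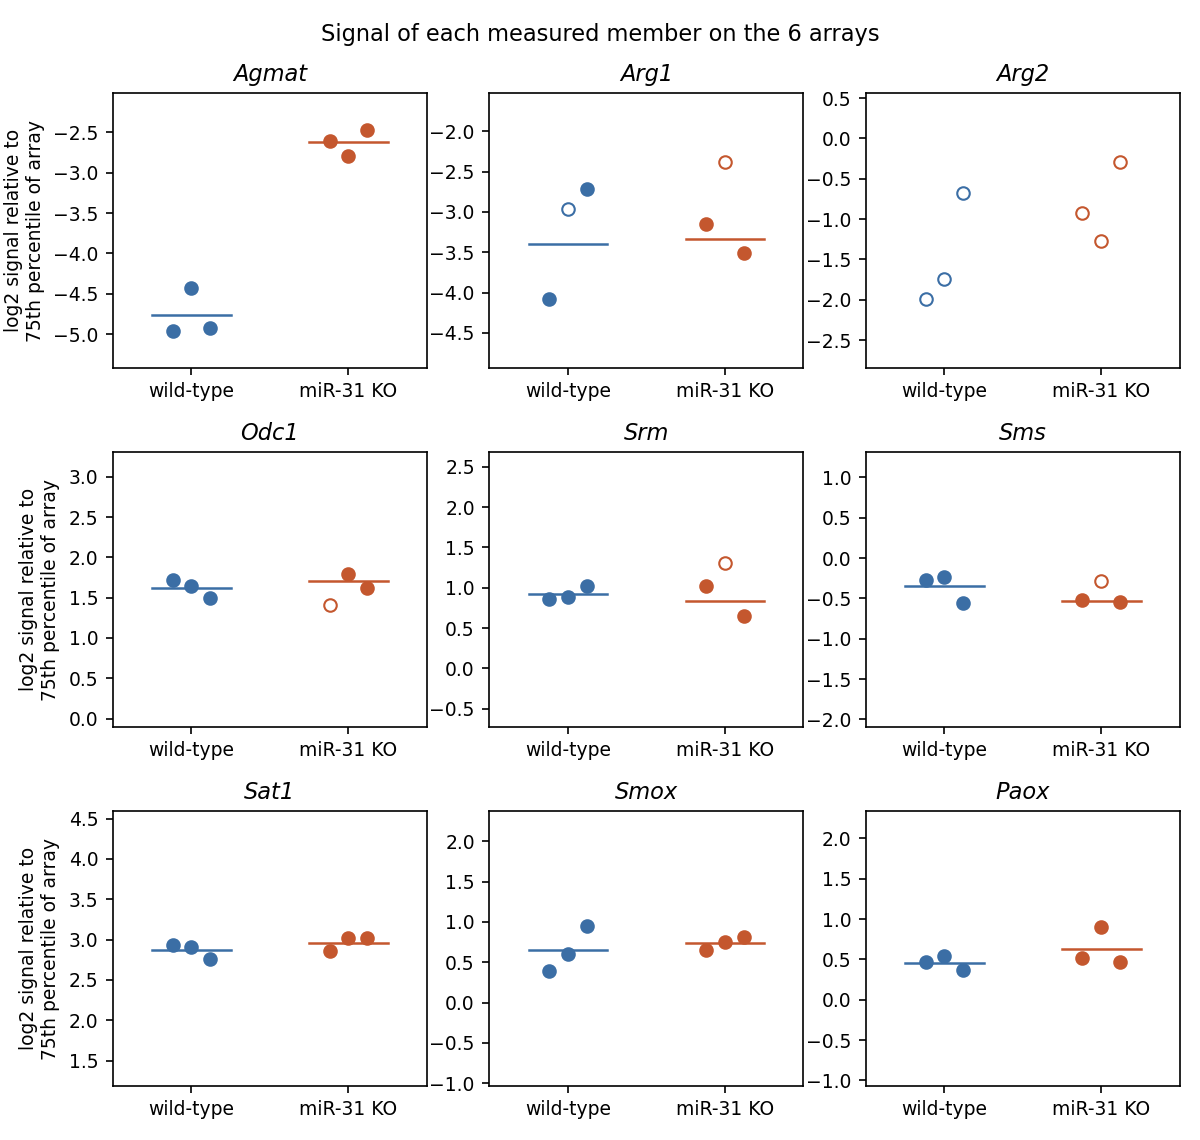
Log2 signal relative to the 75th percentile of the array for the tested probe of each member, and for the only probe of Arg2, in 3 wild-type and 3 knockout mice. Each point is an array, open points are spots marked as outliers, lines are means of unmarked spots, and every vertical axis spans the same number of log2 units: the groups separate for Agmat and overlap in the other panels.

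Of the 8 tested members, 6 had a difference above 0 and 2 below, with a median of 0.09, against a median of -0.06 over all features tested. The 7 members other than Agmat lay between -0.18 and 0.17, and the 16 probes other than that of Agmat lay between -0.33 and 0.64 with marks ignored, or up to 0.29 without Arg2. Groups did not overlap for 1 of 8 members, Agmat, against 18% of all features. The intervals of the 7 other tested members reached from -1.15 to 1.28 because of Arg1, and without it from -0.56 to 0.53.

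**Figure D3:**
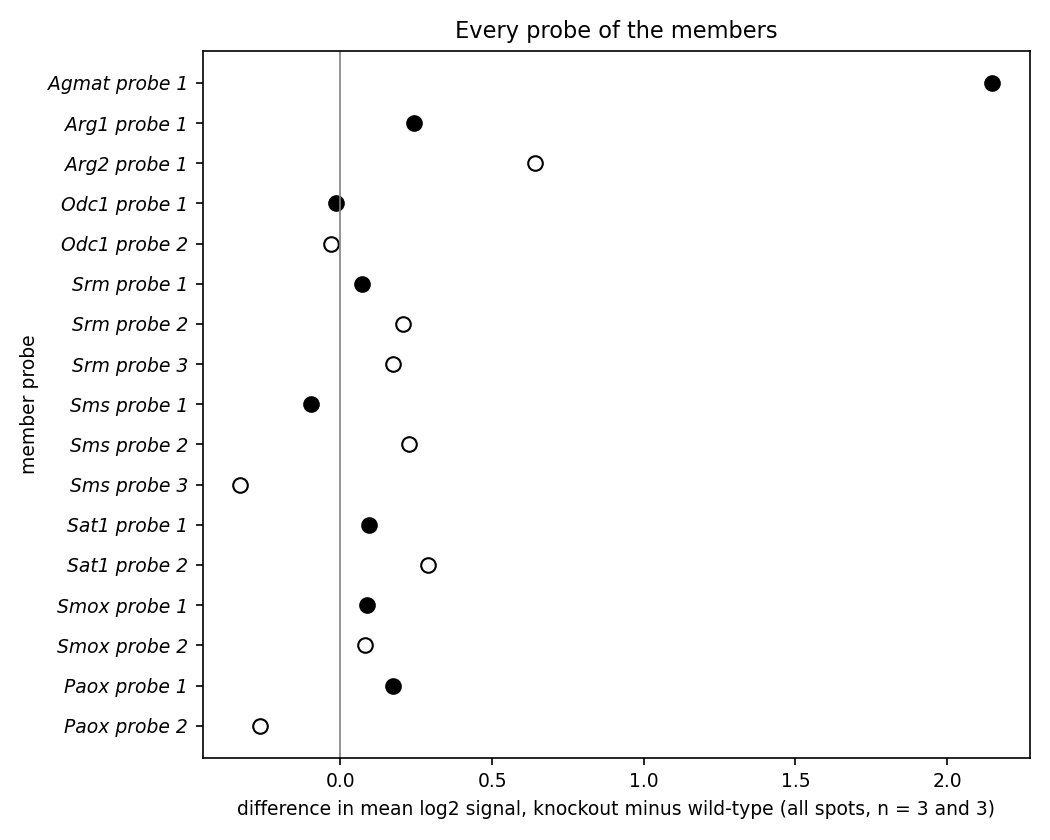
Difference in mean log2 signal between knockout and wild-type mice for all 17 probes of the 9 members with a probe, marked spots included, 3 arrays a group. Filled points are the tested probes: the Agmat probe lies at 2.15, and the other 16 lie between -0.33 and 0.64.

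The position of Agmat was compared with its surroundings, which the choice of genes did not use. Agmat lies on chromosome 4 with 486 tested genes between it and Mir31. The nearest tested genes were Plekhm2 on one side, with a difference of 0.14 ± 0.16 (SE, n = 3 and 3), and Dnajc16, a heat shock protein co-chaperone gene, on the other, with 0.06 ± 0.23 (SE, n = 2 and 2). Dnajc16 gave -0.53 and -0.76 in wild-type mice 2 and 3 and -0.33 and -0.85 in knockout mice 1 and 3. The differences of both genes were far smaller than that of Agmat and within 1 SE of 0.

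Over the 10 tested named genes on either side, 0 of 20 passed the adjusted threshold (limma), against 0.208% of all features, and 0 were below an unadjusted p of 0.05, against 10.7% of all features. Their differences ran from -0.36 to 0.37 with a median of -0.02. The groups did not overlap for 2 of the 20, or 10%, against 18% of all features. These were Tmem82, at 0.32 ± 0.17 (SE, n = 3 and 2; adjusted p = 0.559), and Tmem51, at -0.29 ± 0.19 (SE, n = 2 and 2; adjusted p = 0.644).

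**Figure D4:**
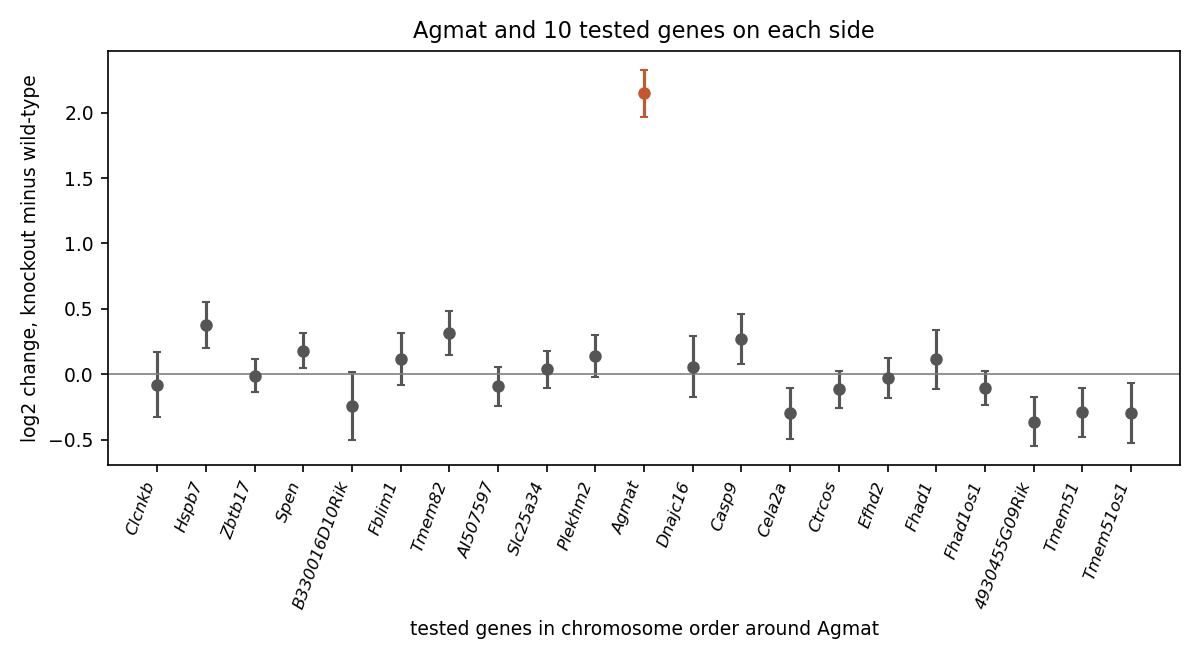
Log2 change, knockout minus wild-type, with its SE, for Agmat and the 10 tested named genes on each side of it in chromosome order. Agmat lies at 2.15 and the 20 neighbours between -0.36 and 0.37.

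Farther along chromosome 4, the nearest called gene was Zfp600, 32 tested genes away, followed by Zfp981, Rex2 and Zfp979 at 33, 34 and 36 tested genes. Srm lay 53 tested genes away on the same side. On the chromosome as a whole 8 of 969 named genes were called, or 0.826%, and on the other chromosomes 25 of 14282, or 0.175%. The 8 include Agmat itself, which was selected on its difference, and the chromosome was looked at because Agmat lies on it. These shares are descriptions, since called genes that lie side by side are not independent of each other.

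Genes whose 6 array values were most like those of Agmat were ranked by Pearson's r over the 6 arrays. The ranking covered 12643 named genes with an unmarked value on all of them. The first 5 were Gm15987 (r = 0.989), Zfp963 (r = 0.987), Nalcn (r = 0.984), Arhgef10 (r = 0.981) and Acot12 (r = 0.980). None of the 5 lies on chromosome 4. Gm15987 and Acot12 lay below the dimmest signal well above background on every wild-type array. These genes passed the filter through the knockout arrays alone, and their wild-type values are at background. Nalcn lay below that signal in wild-type mouse 1, at -7.02 against -6.45. With 6 arrays in 2 groups, such a likeness mostly restates that all 5 were higher in the knockout.

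Other genes of the pathway were taken from lists chosen for their role, 60 genes in 4 lists, of which 46 were tested. Of the 14 not tested, 11 were above background but marked on too many arrays and 3 were too dim. Over the 46 genes 0 passed the adjusted threshold (limma), against 0.208% of all features, and the lowest adjusted p was 0.250. At an unadjusted p under 0.05, 1 was higher and 4 were lower, or 10.9% together, close to the 10.7% of all features. The median difference was -0.03, with 22 genes above 0 and 24 below. Groups did not overlap for 8 of the 46, or 17.4%, close to the 18% of all features, so separation of single genes below is no more frequent than elsewhere.

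Transport of cationic amino acids and polyamines was represented by 14 tested genes of 19 listed, with a median difference of -0.04 and 0 called. Slc7a1, the main transporter for cationic amino acids, gave 0.70, 0.59 and 0.64 in wild-type mice 1 to 3 and 1.14, 1.40 and 0.88 in knockout mice 1 to 3. All knockout arrays were above all wild-type arrays, by 0.50 ± 0.15 on average (SE, n = 3 and 3), without passing (adjusted p = 0.338). Slc7a2, a transporter of the same substrates, went the other way at -0.71 ± 0.18 (adjusted p = 0.259), again with no overlap, and with 5 of 6 arrays well above background. With normexp the difference of Slc7a2 was -0.24. Slc22a3, an organic cation transporter, had a difference of 0.41 ± 0.21 (adjusted p = 0.549), which became 0.20 without knockout mouse 3 and 0.61 without knockout mouse 1.

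Slc7a9, the light subunit of the exchanger for cystine and dibasic amino acids, gave -0.57, -0.80 and -1.24 in wild-type mice 1 to 3 and -2.07, -2.63 and -0.53 in knockout mice 1 to 3. Knockout mouse 3 was the highest of all 6 arrays and the other knockout arrays the lowest, so the difference of -0.87 ± 0.51 (adjusted p = 0.592) summarises unlike mice. Without knockout mouse 3 it was -1.48 and did not pass (adjusted p = 0.108). A fit within slide columns rests on 2 columns only, which hold mice 1 and mice 2 of both genotypes, and so takes nothing from mouse 3 of either genotype. In it Slc7a9 passed, at -1.67 (adjusted p = 0.0359).

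Supply and use of arginine was represented by 15 tested genes of 18 listed, with a median of 0.05 and 0 called. Nos3, the endothelial nitric oxide synthase, had a difference of -0.30 ± 0.12 (adjusted p = 0.462), with 4 of 6 arrays well above background. Aldh18a1, which makes the precursor of proline and ornithine, was at 0.28 ± 0.14 (adjusted p = 0.527). Nags, which makes the activator of the first urea cycle enzyme, was at 0.55 ± 0.30 (adjusted p = 0.557), and Ass1, argininosuccinate synthase, at -0.27 ± 0.17 (adjusted p = 0.628). None of these differences passed the test. Over the alternatives Nos3 ranged from -0.38 to -0.11, Aldh18a1 from 0.19 to 0.38, Nags from 0.35 to 0.84 and Ass1 from -0.41 to -0.15.

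Regulators and breakdown enzymes of polyamines, with the enzymes of hypusine, the amino acid made from spermidine in Eif5a, gave 11 tested genes of 14 listed, a median of -0.06 and 0 called. Oaz3, the testis form of the ornithine decarboxylase antizyme, gave -4.46, -4.44 and -4.71 in wild-type mice 1 to 3 and -5.69, -5.92 and -4.63 in knockout mice 1 to 3. Knockout mouse 3 again stood with the wild-type arrays, and the difference was -0.87 ± 0.33 (adjusted p = 0.413). Without knockout mouse 3 the gene passed, at -1.27 (adjusted p = 0.0456). With normexp on all arrays the difference of Oaz3 was -0.41 and did not pass. Myc, the transcription factor known to activate Odc1, was at -0.36 ± 0.17 (SE, n = 2 and 2; adjusted p = 0.536), at -0.08 with its marked spots kept, and on its second probe at -0.20. Azin2, an antizyme inhibitor, was at -0.52 ± 0.42 (adjusted p = 0.706), a value that rests on single arrays, since it was -0.04 without knockout mouse 3, -0.27 without wild-type mouse 2 and -0.79 without knockout mouse 2. Dhps, deoxyhypusine synthase, was at -0.13 ± 0.11 (adjusted p = 0.743).

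The methionine cycle and salvage, which supply S-adenosylmethionine and recover the methylthioadenosine left by polyamine synthesis, gave 6 tested genes of 9 listed, a median of 0.02 and 0 called. Mri1, the isomerase of the salvage route, gave 0.54, 0.74 and 0.45 in wild-type mice 1 to 3 and 0.04, 0.11 and 0.00 in knockout mice 1 to 3. Every knockout array was below every wild-type array, by 0.52 ± 0.13 on average (SE, n = 3 and 3), and the adjusted p was 0.250. Enoph1, another enzyme of that route, was at 0.24 ± 0.14 (adjusted p = 0.598). Mat2a, which makes S-adenosylmethionine, was at 0.11 ± 0.13 (adjusted p = 0.811), and Mtap, which starts the salvage, at 0.16 ± 0.19 (adjusted p = 0.817). With 1 array left out, the difference of Mat2a was as low as 0.01 and that of Mtap 0.04, both without knockout mouse 2.

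**Figure D5:**
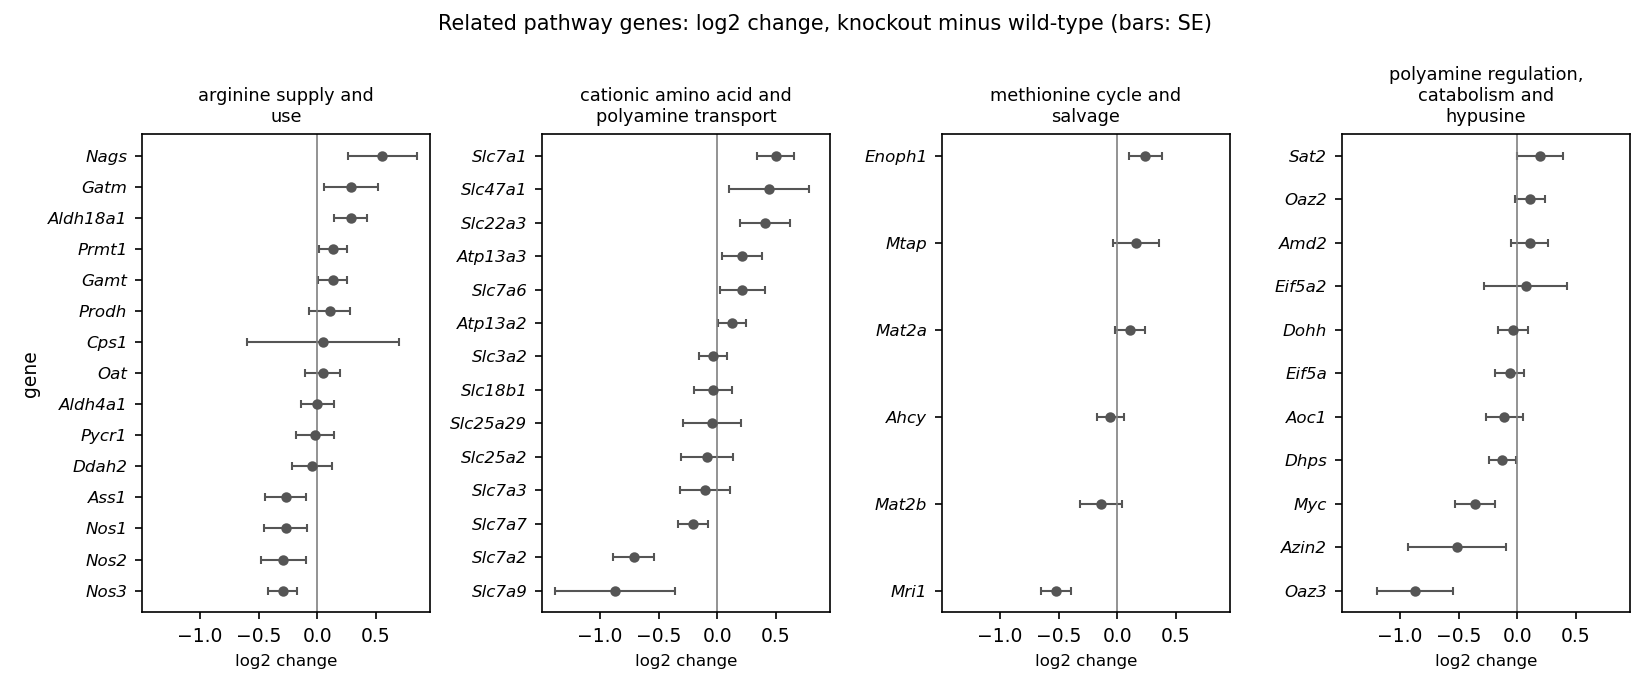
Log2 change, knockout minus wild-type, with its SE, for the 46 tested genes of 4 related lists. Slc7a1 lies highest of the transporters at 0.50, Slc7a9 and Oaz3 lie lowest in their lists at -0.87, and 0 of the 46 passed the adjusted threshold.

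Markers of other cells are given beside Agmat, since in bulk tissue fewer cells of a type and less RNA per cell cannot be told apart. Summed signals, in multiples of the 75th percentile, overlapped between genotypes for the epithelial, surface colonocyte, crypt, macrophage, T cell, fibroblast, endothelial and blood lists. Sums use only markers with an unmarked value on all 6 arrays, which left 1 of 8 epithelial, 2 of 8 surface colonocyte and 5 of 8 crypt markers, so the first sums describe very few genes. Sums did not overlap for the other 4 lists. For comparison, groups did not overlap for 18% of all single features, and 38.5% of all features had a difference above 0. No tested marker of any list was called. B and plasma cell markers, 6 of 6 tested, summed to 0.159 to 0.184 in wild-type and 0.196 to 0.289 in knockout mice, and 5 of the 6 had a difference above 0. Adipocyte markers, 4 of 6 tested, summed to 0.722 to 0.808 and 0.857 to 1.35, but only 1 of the 4 had a difference above 0 and their median was -0.13, so most of them did not share the direction of the sum. Smooth muscle markers, 5 of 6 tested, summed to 1.43 to 1.49 in wild-type and 1.27 to 1.41 in knockout mice, and neutrophil markers, 2 of 6 tested, to 10.3 to 12 and 9.82 to 9.90, and 0 of the tested markers of these lists had a difference above 0. The part of these lists in the difference of Agmat was not tested. For Arg1, which some macrophages make, macrophage markers summed to 17.7 to 21.5 in wild-type and 19.6 to 21.5 in knockout mice, over 8 of 10 markers.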

How the data were processed

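Expression was measured in 6 samples with 1-colour arrays. Per the file headers, the deposited intensity values were made with Feature Extraction 11.5.1.1 (Agilent). The submitters' processing notes give version 10.7. They are background-subtracted, with no scaling of arrays to each other. The authors' series table repeats this linear intensity, with 99.7% of values less than 0.01 log2 units from the scanner file, and has medians of 231, 234 and 247 for the wild-type and 259, 228 and 241 for the knockout columns.

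Of 59305 non-control spots, between 4.95% and 17.3% per array were marked as non-uniform or population outliers and left out. The others were taken as log2 minus the 75th percentile of the array and averaged per probe. Of 56605 probes 33767 matched a symbol by RefSeq accession (GRCm38.p6, used for names and order, since the array design names mm9). Probes well above background on at least 3 arrays, with at least 2 unmarked arrays in each group, were tested, taking the probe with the highest mean per gene. With an array left out, the minimum of unmarked arrays was lower, so further features were tested. The fit was limma 3.58.1 in R 4.3.3, checked on simulated data, with p-values adjusted over all features (Benjamini-Hochberg, threshold 0.05). The arrays are of separately numbered mice, and 3 per group limits the precision.

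The members and the lists were chosen with earlier results of these data known. Named genes are all members, the 4 genes with the smallest unadjusted p of each related list, the neighbours of Agmat nearest to it or without overlap, and the 5 genes most like Agmat. Called genes of chromosome 4 and Amd2 were named after their values were seen. Alternatives covered background correction, scaling, the dim-probe filter, marked spots, the probe rule, the value table, the variance model, array weights, an animal number block, slide column and leaving out each array.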

Additional observations from a re-analysis of the deposited data

How the results depend on the processing

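Over 18 alternatives the difference of Agmat kept its direction, with log2 changes of 1.59 to 2.32. These are sizes and no test, since the members were chosen on this difference. Agmat has 1 probe with 1 unmarked spot, well above background, on each array. Changes to the dim-probe filter, marked spots or probe rule therefore left its difference at 2.15. The variance model and the balanced animal number block could not move that size either. Without wild-type replicate 1 (2.05) or wild-type replicate 3 (2.07) Agmat was not among the calls. With 1 array left out the Agmat change ranged from 2.05 to 2.32, the number of members called from 0 to 1, the number of related genes called from 0 to 1, and the number of all features called from 20 to 113. In these fits 1 unmarked array in a group was enough, so further features were tested and some genes changed probe. The moves in calls therefore do not come from the missing mouse alone. The count of all features, 58, became 100 with normexp, 35 without the filter on dim probes, 33 with probes above background on all arrays, 106 with trend and robust variance, 103 with array weights and 216 with slide column as a block, where 1 related gene, Slc7a9, was called. Only 2 slide columns hold both genotypes, so that fit compares mice 1 and mice 2 within columns and takes nothing from mouse 3 of either genotype. The cause of the other moves was not tested. No other member was called under any alternative. Sat1 and Paox kept a positive difference in all 18, Smox in 17, Odc1 in 16 and Arg1 in 15, while Srm and Sms were negative in 14. The 4 positive values of Sms came from a probe other than the reported one. It gave 0.15 without wild-type mouse 1, knockout mouse 1 or knockout mouse 2, and 0.23 with marked spots kept. For Odc1 the value of -0.03 with marked spots kept was that of its second probe. For Sat1 and Paox all 18 used the same probe as the main fit, because their second probes were dimmer and often marked. The counts therefore say nothing of those second probes, of which that of Paox went the other way. The neighbours of Agmat gave 0 calls throughout.

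The animal number block sets the 4 mice whose animal numbers differ only in the last digit against the other 2. Each side holds as many wild-type as knockout mice, so the difference of Agmat, 2.15, could not move. With this block 62 features were called. No paired analysis by replicate number was possible because the labels give no replicate numbers shared between groups; the fit within slide columns pairs arrays by their place on the slide. Normexp was planned on the mean spot signal, and was run on the median signal, a choice made after seeing the files. Marked spots limit Arg1, Arg2 and the second probes of Odc1, Sat1 and Paox. Arg1 ranged from -0.61 to 0.93 over the alternatives, the latter from mice 1 alone in the fit within slide columns.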

Other observations

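Dhps, deoxyhypusine synthase, had 3 probes that went different ways, a pattern noticed after its values were seen. The tested probe gave 1.63, 1.61 and 1.64 in wild-type and 1.55, 1.59 and 1.38 in knockout replicates 1 to 3, and a second probe differed by -0.12. The dimmest probe gave -2.74, -2.96 and -2.98 in wild-type and -1.66, -1.82 and -2.24 in knockout replicates 1 to 3, a difference of 0.99 with no overlap. With the mean over its probes Dhps therefore turned from -0.13 to 0.25, and neither value was called.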
